A study of Mus musculus with 3 samples.

Results

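The cystatins described here are Cst3, Cst6, Cst7, Cst8, Cst9, Cst11, Cst12 and Cstb, 8 genes found by their name in the annotation of the array. They are read by 10 of the 41174 probes. The family was chosen by the measured ratio of Cst8, which had earlier been seen among the strongest decreases of this very comparison, so the ratios of all 8 genes are a description and carry no test of their own. Whole ovaries were compared between conditional knockout (cKO) females, with the genotype Bmal1fxfxCresf-1, and Bmal1fxfx females without Cre, which the labels also call wild type. Both groups were C57Bl/6J females aged 10 weeks that carried the floxed Bmal1 alleles, were fed ad libitum under 12 h of light and 12 h of dark, and were killed at ZT12, the time of lights off, on day 3.5 after copulation. RNA of 3 animals was pooled, and each of 3 two-colour Agilent arrays took a cKO pool in cy3 and a control pool in Cy5.

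Some features of the groups limit what they model. The sf-1 promoter drives Cre in steroid-producing cells, and in other steroidogenic and gonadotropic tissues outside the ovary, whereas whole ovaries were extracted. Source names of the control pools read Bmal1fxwt, while their genotype field reads Bmal1fxfx, and on arrays 2 and 3 the number at the end of the Cre name in the genotype field follows that of the array. No dyes were swapped, so the effects of dye and genotype on a probe cannot be told apart. The targeted gene, Arntl, had log2 ratios of 0.27, 0.13 and -0.24 on arrays 1 to 3. The labels do not say which part of the gene is deleted, so its probe may lie outside that part and checks nothing. All 10 luteal, all 8 granulosa and all 8 oocyte markers were well above background in every pool. Array 1 lay on a slide of its own, and arrays 2 and 3 shared another. Over all genes tested, which are not independent replicates, the ratios of arrays 1 and 2 had a Pearson r of 0.601, those of arrays 1 and 3 of 0.213 and those of arrays 2 and 3 of 0.00858. With 3 arrays, precision is limited by their number.

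Cystatins are reversible inhibitors of cysteine proteases of the papain kind, which include the lysosomal cathepsins. Stefins such as cystatin B act inside cells, and secreted cystatins such as cystatin C act mainly outside them or within the endosomal system. A subgroup of secreted cystatins, named CRES after cystatin-related epididymal spermatogenic, its founding gene Cst8, is known for expression in reproductive tissues and lacks sequence that the other cystatins use to bind papain-like proteases. CRES itself has been described in testis, epididymis and gonadotrophs, and as an inhibitor of the prohormone convertase encoded by Pcsk2. Of the members here, Cst8, Cst9, Cst11 and Cst12 belong to this subgroup.

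The values rest on short probes, and the CRES genes are paralogs that neighbour each other, so the probes of the 3 members with ratios below 0 on every array are shown first. Capitals mark the longest run that a probe shares with either of the other two.
Cst8: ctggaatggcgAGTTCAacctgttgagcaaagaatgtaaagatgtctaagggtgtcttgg
Cst12: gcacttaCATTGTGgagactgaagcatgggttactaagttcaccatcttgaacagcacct
Cst9: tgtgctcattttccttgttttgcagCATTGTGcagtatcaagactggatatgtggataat
These runs were 6 and 7 bases long. Aligned without gaps, the probes of Cst8 and Cst12 matched at 23 of 60 bases at most, those of Cst12 and Cst9 at 22 and those of Cst8 and Cst9 at 21. Only probes were compared with each other, and binding of a probe to the transcript of a paralog was not tested. The Cst12 probe was designed on an expressed sequence tag.

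Cst8, the CRES cystatin, was 5.50-fold lower in the cKO ovaries. Its log2 ratio of cKO over control was -2.80, -2.26 and -2.32 on arrays 1 to 3, a mean of -2.46 ± 0.29 (SD, n = 3). The mean spot signal was 64405, 48321 and 29988 in the control pools and 6948, 10493 and 8371 in the cKO pools, over local backgrounds of 33.5 to 58. The transcript was thus well above background in all 6 pools. After normalisation the log2 level was 15.48 ± 0.27 in the control pools and 13.02 ± 0.44 in the cKO pools, and the 2 groups did not overlap. No spot was marked as saturated, but the control spot of array 1 reached 98.8% of the scanner's limit, against 74.1% and 46.0% on arrays 2 and 3. In RNA of whole ovaries, fewer cells that express a gene and less RNA per cell cannot be told apart.

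Cst12, known as CRES3, was also lower in each cKO pool than in the control pool beside it. Its log2 ratios were -0.78, -1.59 and -0.72, a mean of -1.03 ± 0.48, or 2.05-fold lower. The mean level was 13.00 ± 0.23 in the control and 11.97 ± 0.26 in the cKO pools, again without overlap. Array 2 had the lowest ratio of Cst12, whereas it had the highest ratio of Cst8.

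Cst9, which encodes testatin, a cystatin-like protein known from the developing testis, had ratios of -0.97, -0.76 and -0.36, a mean of -0.69 ± 0.31. Its spots were dim. Mean signals were 172, 120 and 99.2 in the control and 68.8, 77.4 and 68.3 in the cKO pools, over local backgrounds of 37 to 47.5. All 6 were still marked as well above background. The normalised level was 7.20 ± 0.25 in the control and 6.51 ± 0.11 in the cKO pools, with no overlap. Dim spots are pulled toward 0 by the offset of the background correction. In the signals processed by the scanner software, Cst9 had ratios of -1.83, -1.33 and -0.53, a mean of -1.23 ± 0.65. Those signals lack the offset but differ in other steps as well. Without background correction the mean of Cst9 was -0.83. The part of each step in these differences was not tested.

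Cst11, the CRES2 gene, could not be measured. It was not well above background in any cKO pool and was so in 1 of the 3 control pools. Its ratios of -0.04, -0.14 and 0.05 describe spots at the detection limit, and neither group's level nor a fold can be given.

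**Figure D1:**
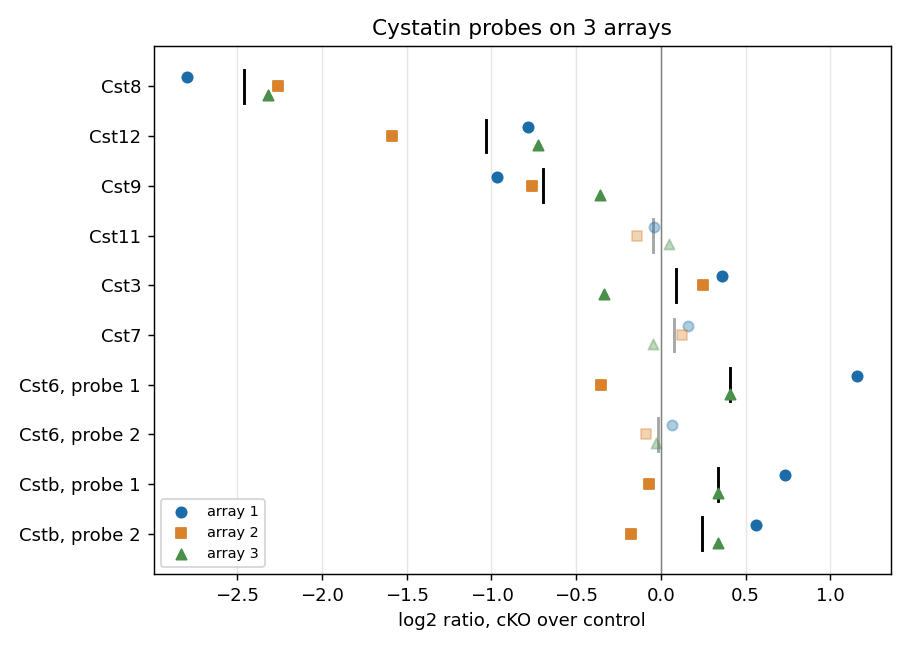
Log2 ratio of cKO over control (x axis) for each of the 10 cystatin probes (rows), with a point per array and a black bar at the mean of 3 arrays; pale rows are probes that failed the filter on dim probes. Cst8 lies apart between -2.80 and -2.26, Cst12 and Cst9 lie below 0 on each array, and the other probes lie on either side of 0 or at the detection limit.

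Among members outside the CRES subgroup, no ratio had the same sign on all arrays. Cst3 encodes cystatin C, the widely expressed secreted inhibitor of cathepsins. Its ratios were 0.36, 0.25 and -0.33, a mean of 0.09 ± 0.37, and its level was 14.30 ± 0.10 in the control and 14.39 ± 0.28 in the cKO pools. Cstb, the intracellular stefin cystatin B, had ratios of 0.74, -0.07 and 0.34, a mean of 0.33 ± 0.40. A second Cstb probe gave 0.56, -0.18 and 0.34, so both probes put array 1 highest and array 2 below 0. Cst6, which encodes cystatin E/M, an inhibitor of legumain and cathepsins best known from epithelia of the skin, had the widest spread. Its ratios were 1.16, -0.35 and 0.41, a mean of 0.41 ± 0.76. A second Cst6 probe was not well above background in any pool and gives no value.

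Cst7 encodes cystatin F, or leukocystatin, which regulates proteases in cytotoxic lymphocytes and myeloid cells. It was well above background in 2 of 3 cKO pools and in 0 of 3 control pools. Its ratios of 0.16, 0.12 and -0.04 lie at the detection limit. In the signals processed by the scanner software they were 1.59, 1.88 and -0.06. The cKO pools well above background were those of arrays 1 and 2. As no control pool was well above background, no fold can be given, and a difference was not tested.

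In order of their mean ratio the measured members ran from Cst8 over Cst12, Cst9, Cst3 and Cstb to Cst6. Cst8 and Cst12 did not overlap over the arrays, with -2.26 as the highest value of Cst8 and -1.59 as the lowest of Cst12. Cst12 and Cst9 overlapped, and so did Cst3, Cstb and Cst6. The highest value of Cst9, -0.36, and the lowest of Cst3, -0.33, lay side by side.

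**Figure D2:**
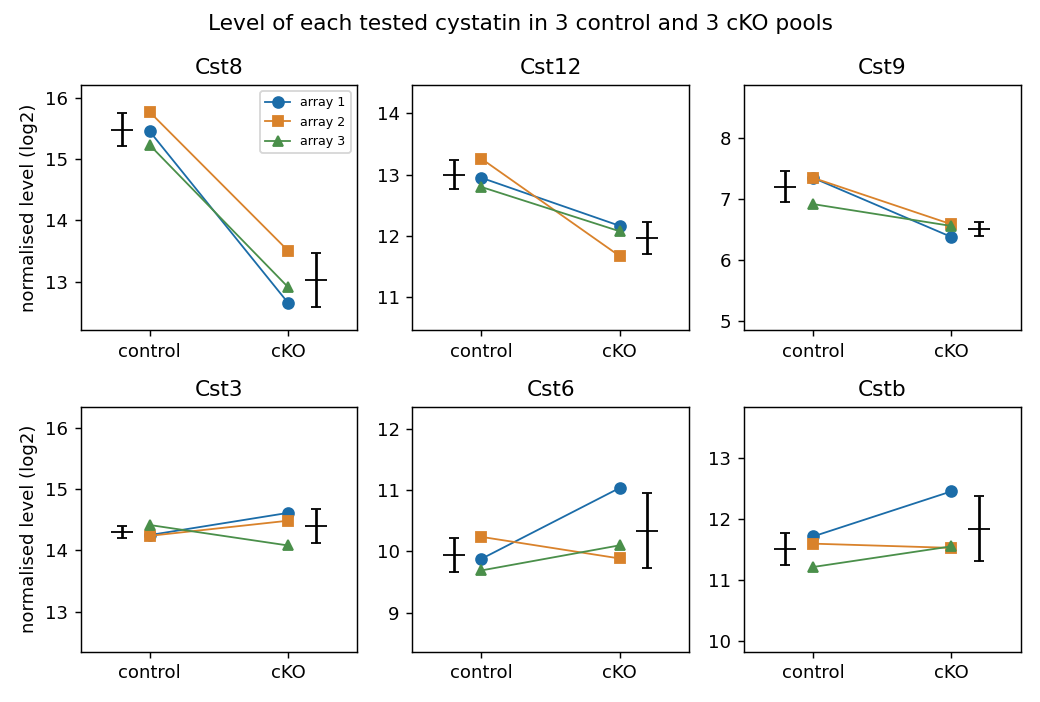
Normalised log2 level (y axis, 4 log2 units in every panel) of the 6 cystatins that passed the filter in 3 control and 3 cKO pools, lines joining pools of the same array, black bars giving mean and SD. Pools do not overlap for Cst8, Cst12 and Cst9, and do for Cst3, Cst6 and Cstb.

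Of the 8 members, 6 passed the filter on dim probes and entered limma's fit over 17858 genes, while Cst7 and Cst11 did not. Cst8 alone passed a Benjamini-Hochberg adjusted p of 0.05, so 1 of the 6 was called, lower, and 0 higher; over all genes 0.174% were called, 0.106% lower and 0.0672% higher. This count includes the comparison that chose the family and is given for completeness. The call also depended on processing, as it was lost after leaving out array 1 or array 3, with ratios of -2.29 and -2.53, after median centring or scaling of the arrays, without the filter, and with every kept probe tested. Cst8 had the seventh lowest mean of all genes, with 6 genes lower. For Cst12 and Cst9, 113 and 330 genes had a lower mean. Ratios were below 0 on all 3 arrays for 3 of the 6 members, against 17.8% of all genes, and above 0 on all 3 for 0 of them, against 17.5%. All cKO levels lay below all control levels for the same 3 members, against 9.83% of all genes. The median of the 6 ratios was -0.30, with 0.00 over all genes. These counts and this median also include Cst8, whose ratio chose the family, so they are a description and no test.

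The CRES genes sit in a row on chromosome 2, and 6 of the 8 members lie on that chromosome, with Cst6 on chromosome 19 and Cstb on chromosome 10. In the gene order of RefSeq (GRCm38.p6, used for order only), the protein-coding genes with a probe run Cstl1, Cst11, Cstdc1, Cst12, Cst8, Cst13, Cst9, Cstdc2, Cst3 and Cst10. Cst8 and the genes beside it, from Cst12 to Cst9, form an unbroken run of 4 with ratios below 0 on every array, as 17.8% of all genes had. The run was looked for around Cst8, whose ratio chose the family, and was not tested. Within it Cst9 and Cst13 were dim, and the Cst13 probe was not among those compared above. Cst13, a cystatin known from testis that lies between Cst8 and Cst9, had ratios of -0.97, -0.62 and -0.25, a mean of -0.62 ± 0.36, and did not pass (limma, adjusted p = 0.325). Its spots were also dim, and in the signals processed by the scanner software its ratios were -2.69, -1.64 and -0.93. Next in the row, Cstdc2, a cystatin-domain gene, lay on the other side of 0 with 0.51, 0.54 and 0.44. Its mean was 0.49 ± 0.05, and it did not pass either (limma, adjusted p = 0.283). Cstdc2 was dim as well, and in the signals processed by the scanner software its mean was 1.31 ± 0.17. In those signals the mean of Cst9 was -1.23 ± 0.65 and that of Cst13 -1.75 ± 0.88. Cstl1 and Cst10 were not well above background in any pool, and Cstdc1 was so in 1 cKO pool alone.

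**Figure D3:**
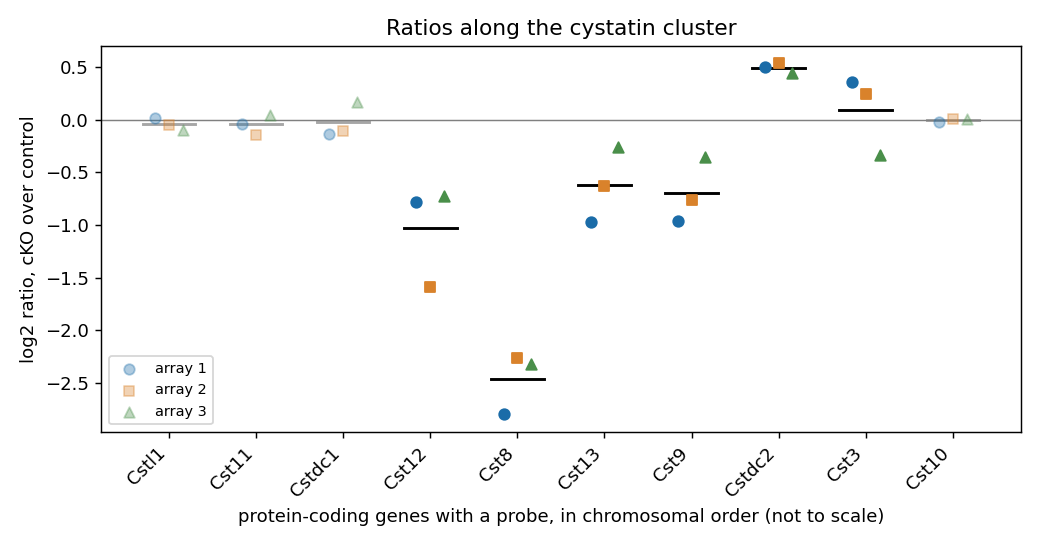
Log2 ratio of cKO over control (y axis) of protein-coding genes with a probe in the order in which they lie around Cst8 (x axis, not to scale), with a point per array and a bar at the mean; pale genes failed the filter on dim probes. From Cst12 to Cst9 all points lie below 0, with Cst8 lowest, and those of Cstdc2 lie between 0.44 and 0.54.

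BMAL1 with CLOCK binds E-boxes, of which CACGTG is the canonical form and CACGTT a variant, and SF-1 and its relatives bind AAGGTCA. RefSeq sequences of the 250 bases before the start (GRCm38.p6) were matched to 5 of the 8 members, Cst3, Cst7, Cst8, Cst9 and Cst12. Those of the 3 members with ratios below 0 on each array are printed 5′ to 3′ along the gene, with any match to these motifs on either strand in capitals.
Cst8, chr2:148798589-148798838, + strand: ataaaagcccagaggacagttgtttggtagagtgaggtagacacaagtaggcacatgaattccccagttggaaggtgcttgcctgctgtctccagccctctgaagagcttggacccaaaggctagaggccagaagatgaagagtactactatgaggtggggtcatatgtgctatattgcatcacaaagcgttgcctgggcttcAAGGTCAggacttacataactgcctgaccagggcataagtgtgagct
Cst12, chr2:148789115-148789364, + strand: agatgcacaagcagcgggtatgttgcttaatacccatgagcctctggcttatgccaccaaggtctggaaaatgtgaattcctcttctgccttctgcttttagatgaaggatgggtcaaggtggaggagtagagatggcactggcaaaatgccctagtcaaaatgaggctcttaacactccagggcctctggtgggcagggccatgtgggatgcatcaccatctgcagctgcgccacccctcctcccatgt
Cst9, chr2:148834897-148835146, + strand: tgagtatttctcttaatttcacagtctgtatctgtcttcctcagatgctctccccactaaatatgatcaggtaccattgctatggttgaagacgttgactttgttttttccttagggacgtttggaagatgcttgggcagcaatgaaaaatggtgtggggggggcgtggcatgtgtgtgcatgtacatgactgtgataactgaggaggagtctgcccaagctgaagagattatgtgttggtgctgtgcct
None of the 5 held CACGTG or CACGTT. Cst8 held AAGGTCA once, on the strand of the gene from base -47 to base -41 before the start, and the other four did not. The neighbour Cst13 held it once as well, on the opposite strand at bases -223 to -217. Among 32851 RefSeq promoter windows of this length, 6.02% held CACGTG, 3.85% CACGTT and 4.08% AAGGTCA. The first 5 bases of both E-box forms are the same. AAGGTCA also forms the core of sites of ROR and REV-ERB receptors, so its letters name no factor. A match describes these letters and no site in use, and its absence says nothing of factors that bind elsewhere.

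Genes whose ratios over the 3 arrays were most like those of Cst8 were found by Euclidean distance in log2 units among all genes tested. The nearest was Cela1, an elastase of the pancreatic kind, at a distance of 0.40, with ratios of -2.58, -1.99 and -2.12. It was followed by Npb, which encodes neuropeptide B, at 0.50, with -3.0, -2.68 and -2.50. The third was CJ042244, an expressed sequence without a gene symbol, at 0.61, with -2.20, -2.14 and -2.24. Ms4a10, a membrane protein of the MS4A family, also lay at 0.61, with -2.45, -2.60 and -1.94. The fifth, Cited1, a transcriptional co-regulator, lay at 0.72, with -2.15, -2.09 and -2.59. Cst12 lay at 2.65, the gene in place 127 by this measure, and Cst9 at 3.08, in place 276. Likeness in a ratio of 3 arrays is a description of strong decreases of like size.

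Most other cystatins on the array were too dim to measure. Of 14 further members of the superfamily, 9 were not tested for that reason: Cst10, Cstdc1 (listed as Cst14), Cstl1, the stefins Stfa1, Stfa2, Stfa2l1 and Stfa3, the kininogen Kng2 and the histidine-rich glycoprotein Hrg. Among the 5 tested, 0 passed in limma's fit and 1 had an unadjusted p under 0.05, Cst13, against 12.3% of all genes. The median was -0.02. The largest values after Cst13 were Fetub, which encodes fetuin-B, an inhibitor needed for fertilisation, at 0.50 ± 0.66, and the kininogen gene Kng1 at -0.19 ± 0.11. Kng1 was well above background in all 3 control pools but in 1 of 3 cKO pools, so its ratio is uncertain. Cstdc2, described above with the cluster, was not in this list, and its mean of 0.49 was of like size to that of Fetub (limma, unadjusted p = 0.0109).

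Papain-like cathepsins and legumain, proteases that cystatins can inhibit, were looked up by name, and all of the 11 listed were tested. Of these, 0 passed in limma's fit in either direction, with 4 at an unadjusted p under 0.05, against 12.3% of all genes. Their median ratio was 0.39, with 0.52, 0.52 and 0.11 on arrays 1 to 3, and 8 of 11 had a mean above 0. Ratios were above 0 on all 3 arrays for 5 and below 0 on all 3 for 0, against 17.5% and 17.8% of all genes. Cathepsin S, Ctss, the protease of antigen-presenting cells, had the largest value, with 2.56, 1.04 and 0.33, a mean of 1.31 ± 1.14 (adjusted p = 0.362). Legumain, Lgmn, an asparaginyl endopeptidase, had 1.52, 0.44 and 0.58, a mean of 0.84 ± 0.59 (adjusted p = 0.330). Cathepsin B, Ctsb, a major lysosomal protease, had 1.19, 0.87 and -0.16, a mean of 0.64 ± 0.71 (adjusted p = 0.471), and its second probe a mean of 0.30.

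Macrophage markers stand beside these proteases. The macrophage list had a median of 0.72, 0.52 and -0.46 on arrays 1 to 3, and 9 of its 13 genes had a mean above 0. Its largest values were lysozyme, Lyz2, at 1.38 ± 1.01, Fcgr1 at 0.74 ± 0.47 and Cd68 at 0.73 ± 1.30. The second probe of Lyz2 had a mean of 1.37, and that of Fcgr1 0.08. All 13 were well above background in every pool, and 0 passed in limma's fit, with 2 at an unadjusted p under 0.05, against 12.3% of all genes. Its summed normalised signal ranged from 32983 to 74956 in the cKO pools and from 20528 to 31602 in the control pools. The part of these cells in the protease ratios, or in those of Cst3, was not tested.

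Proprotein convertases were included because Cst8 is described as an inhibitor of one of them. Of 11 such genes and their binding proteins, 10 were tested and 0 passed in limma's fit, with 1 at an unadjusted p under 0.05, Furin, against 12.3% of all genes. The median was 0.04. Furin, the convertase of the secretory pathway, had 1.18, 1.31 and 0.14, a mean of 0.88 ± 0.64 (adjusted p = 0.336), while its second probe lay at 0.01 and was too dim for the filter. Pcsk2 itself had 0.13, 0.31 and 0.24, a mean of 0.23 ± 0.09 (adjusted p = 0.547), and its second probe was too dim. Pcsk1 was too dim to be tested.

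**Figure D4:**
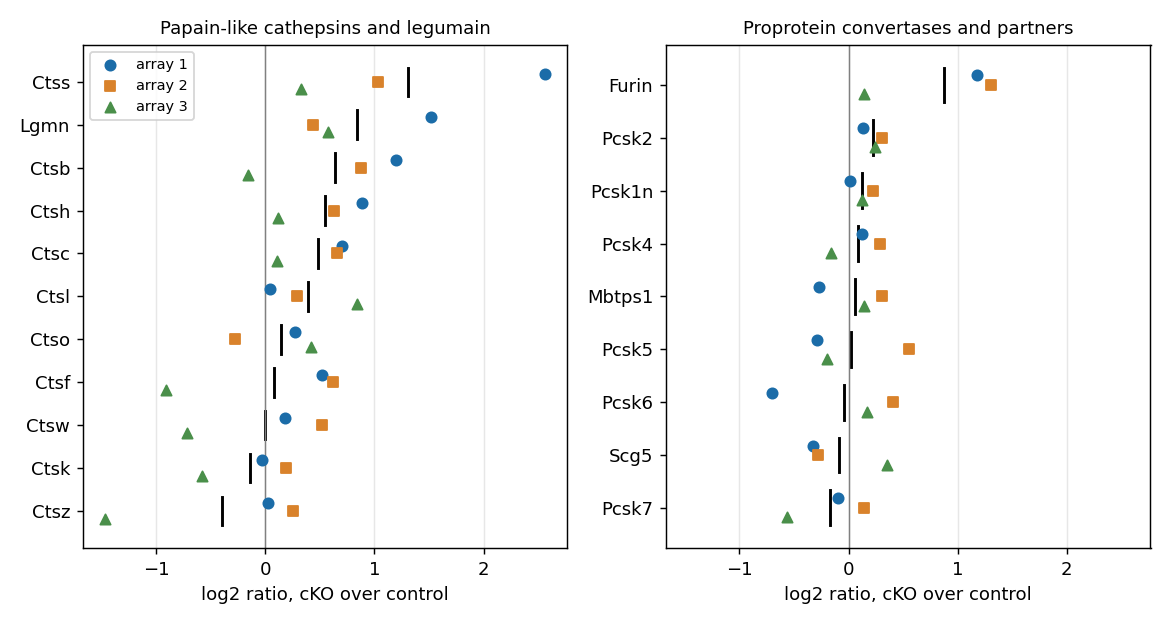
Log2 ratio of cKO over control (x axis) of 11 papain-like cathepsins and legumain (left) and of 9 proprotein convertases and binding proteins (right), with a point per array and a bar at the mean. Ctss reaches 2.56 on array 1, and 0 genes of either list passed the threshold.

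Epithelial marker lists varied between the arrays, as Cst6 and Cstb did. The oviduct epithelium list had medians of 1.11, -0.50 and -0.20 and the ovarian surface epithelium list 1.02, -0.12 and -0.62. Both lists were highest on array 1, as Cst6 and Cstb were, and so were the macrophage and luteal lists. On array 3 both epithelial medians were below 0, while Cst6 and Cstb were above 0, at 0.41 and 0.34. Of the oviduct list, 6 of 7 markers were tested and 3 had a mean above 0; the largest in size were Tubb4b at -0.42 ± 0.19, Ovgp1 at -0.42 ± 2.62 and Cdh1 at 0.31 ± 0.98. Ovgp1, the oviduct's secreted glycoprotein, gave 1.25, -3.43 and 0.93. The summed signal of the list ranged from 10624 to 23010 in the cKO and from 12190 to 17242 in the control pools, and Pax8 was too dim to be tested. Of the surface list, 5 of 8 had a mean above 0, with Krt8 at -0.59 ± 0.63, Krt19 at -0.54 ± 1.2 and Msln at 0.54 ± 0.99, while a second kept Krt8 probe lay on the other side of 0 with a mean of 0.18. The summed signal of this list ranged from 31948 to 70572 and from 35402 to 57313. In both lists 0 genes passed in limma's fit, with 1 oviduct and 0 surface markers at an unadjusted p under 0.05, against 12.3% of all genes. The part of such cells in the ratios of Cst6 and Cstb was not tested.

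**Figure D5:**
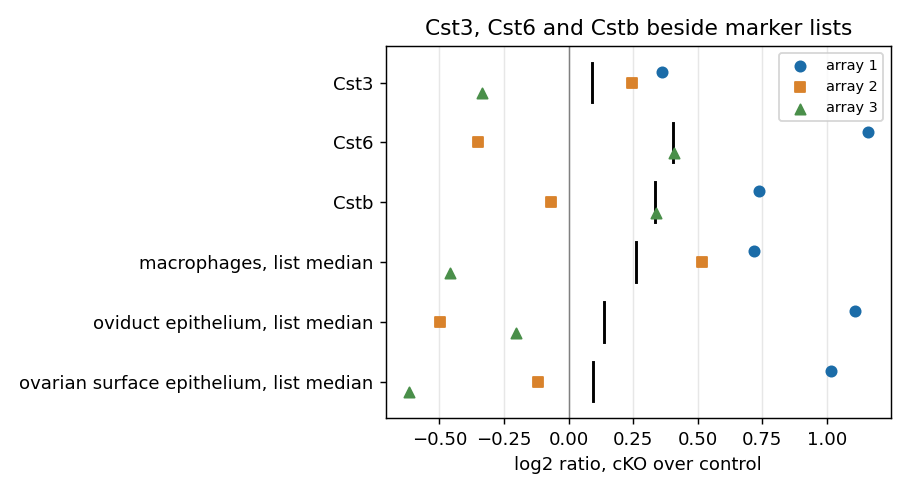
Log2 ratio of cKO over control (x axis) of Cst3, Cst6 and Cstb, and the median over the macrophage, oviduct epithelium and ovarian surface epithelium lists, with a point per array and a bar at the mean of the 3 points. Cst6 reaches 1.16 and the oviduct list 1.11 on array 1, and Cst3 and the macrophage list are below 0 on array 3 alone. On array 3 Cst6 and Cstb lie above 0 and both epithelial lists below it.

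The remaining marker lists stand beside the ratio of Cst8. Of 10 luteal and steroidogenic markers, Star, the cholesterol transporter of steroid synthesis, alone passed and was lower (-4.09 ± 0.13, adjusted p = 0.0196); the median was -0.17, with -0.10, -0.26 and -0.23 on arrays 1 to 3. The unadjusted p was under 0.05 for 4 of the 10, in both directions, against 12.3% of all genes, the share for the lists that follow as well. Besides Star, these were Lhcgr with a mean of -0.86, Ptgfr with 1.07 and Sfrp4 with 0.61 (limma, adjusted p = 0.164, 0.178 and 0.296). Akr1c18 had the highest mean of the list, 1.70 ± 1.81, with ratios of 2.85, -0.38 and 2.64 (limma, adjusted p = 0.426). The second Ptgfr probe had a mean of 0.25, and that of Star -4.09. Of the 10, 7 had a mean below 0. The summed signal of the 10 ranged from 196390 to 230920 in the cKO and from 206560 to 282380 in the control pools. Hsd3b1, a gene of this sum, was marked as saturated in 1 control pool, so its signal there is a lower limit. Among 8 granulosa markers 0 passed in limma's fit and 1 had an unadjusted p under 0.05 (median -0.14, summed signal 45310 to 59743 in the cKO and 60295 to 74942 in the control pools), with Inha at -0.45 ± 0.27, Cyp19a1 at 0.43 ± 1.24 and Fst at -0.28 ± 0.27. A second kept Inha probe disagreed, with 0.60, 0.93 and -0.17, a mean of 0.45, so no direction is given for Inha. The summed signal holds only the first Inha probe. A second Cyp19a1 probe had a mean of 0.58. The 8 oocyte markers had a median of -0.04, and 0 passed in limma's fit with 2 at an unadjusted p under 0.05, with Zar1 at -0.60 ± 0.14, Oosp1 at -0.60 ± 1.04 and Zp2 at -0.55 ± 0.21, whose second probe lay at -0.10. Of 11 lymphocyte markers 9 were tested, and 0 passed in limma's fit with 1 at an unadjusted p under 0.05. Their median was -0.04. Gzmb was at 0.46 ± 0.14, Nkg7 at 0.32 ± 0.14 and Ms4a1 at -0.21 ± 0.56, whose second probe lay at -0.07. A second kept Nkg7 probe lay on the other side of 0, with a mean of -0.12, while Prf1 and Cd79a were too dim, as Cst7 was. The part of these cells in the ratio of Cst8 was not tested.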

How the data were processed

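Arrays were read with Agilent Feature Extraction (version 9.1.3.1, per the file headers), and raw spot and local background intensity values were deposited. The deposited tables also hold intensity values that the software had background-subtracted, detrended and dye-normalised, and log10 ratios of red over green, so of control over cKO; signs were turned. The series value table holds these same log10 ratios (largest difference 0; each column has a median of 0). Any further step is not given in the sources.

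Mean signals were corrected by normexp (offset 50) with median local background and normalised by loess within each array, control spots at weight 0 (limma 3.58.1, R 4.3.3). Outlier-marked spots (13, 4 and 0) were left out and replicate spots averaged. Probes well above background on all 3 arrays in either channel were kept, and each gene was read by its brightest kept probe. Ratios were tested against 0 with lmFit and eBayes, two-sided, Benjamini-Hochberg adjusted over 17858 genes at 0.05. The code of the fit was checked on simulated data with independent noise in each gene and array. That check does not bear on the calls in these data. Each array is 1 replicate of 3 animals per genotype, and p-values measure the spread between these pools, which the labels tell apart by number. Levels per channel were set on a common scale by Aquantile. Summed signals add the unlogged levels of the brightest kept probe of each gene, so bright genes weigh most and the sums count no cells. Symbols come from RefSeq (26788 spots by accession, 6252 by symbol, 1810 by synonym; 8529 kept the name in the file). The alternatives changed the background correction, normalisation, filter, probe choice, slide and arrays.

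The members and lists were chosen with earlier results of these data known. Named by rule are all members, and genes of each list past the threshold or otherwise the 3 largest in size. Also named are 5 genes nearest Cst8, 3 neighbours with a probe on each side of it and Arntl. Lhcgr, Ptgfr, Sfrp4, Akr1c18 and Hsd3b1 were added after their values were seen. A gene that this rule names in the convertase list is not reported here.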

Additional observations from a re-analysis of the deposited data

How the results depend on the processing

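The mean ratio of Cst8 stayed between -2.56 and -2.29 under all 10 alternatives that could be computed per probe, and those of Cst12 (-1.19 to -0.75) and Cst9 (-1.23 to -0.56) stayed below 0. Among the 10, leaving out array 1 and keeping only the slide of arrays 2 and 3 use the same arrays and give the same values. Cst3 ranged from -0.04 to 0.30, Cst6 from 0.029 (without array 1) to 0.78 (without array 2), Cstb from 0.038 (scanner's processed signals; 0.13 without array 1) to 0.54, and Cst7 from 0.040 to 1.14. The second Cst6 probe, not above background, was below 0 in 7 of the 10. Cst9 was at -1.05 with an offset of 10, and Cst11 at -0.71 with the scanner's processed signals. In the main fit 12 genes were higher and 19 lower (38.7% higher). Higher and lower calls were 27 and 26 with the scanner's processed signals (50.9% higher), 28 and 29 with an offset of 10 (49.1%), 20 and 24 without background correction, 26 and 22 with the slide as a fixed term (54.2%), 0 and 1 after median centring, 0 and 0 with equal spread set for all arrays (2299 with unadjusted p below 0.05), 0 and 0 without the filter on dim probes (3182), 0 and 1 with every kept probe tested, and 0 and 1 within the slide of arrays 2 and 3. Leaving out an array gave 0 to 11 higher and 0 to 9 lower (none without array 3, with 4786 at unadjusted p below 0.05). Members called numbered 1 in the main fit, 0 after median centring, scaling, testing every kept probe, dropping the filter or within the slide, and 0 to 1 on leaving out an array (0 without array 1 or 3). The 2 alternatives that test more probes adjust over 26429 and 27975. The cause of the lost calls was not tested for any alternative. Luteal markers had 0 called after scaling or without the filter, and 0 to 2 on leaving out an array; their median was -0.26 within the slide and lay between -0.26 and -0.17 on leaving out an array. Median centring moved the median of all genes by 0.12, the granulosa median to 0.070 and the oocyte median to 0.15. The oocyte median was -0.10 within the slide and with every kept probe tested, and between -0.10 and -0.058 on leaving out an array. The lymphocyte median was 0.063 with the scanner's signals. The slide as a random block could not be estimated for any of 17858 genes from 3 arrays; the fixed term was chosen after seeing the data. No paired analysis was possible because no label pairs the arrays with each other, beyond the pairing of 2 pools within each array that the tested ratio already holds. Signal over background limits Cst7, Cst9, Cst11, Cst13 and Cstdc2, whose spots were dim.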
